A study of Mus musculus with 49 samples.

Results

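The comparison described here is between CT26 tumours labelled R and CT26 tumours labelled NR after treatment with an antibody against PD-1 alone. The tumours were chosen by their treatment and response labels: 4 were R and 13 were NR, 17 of the 49 tumours sequenced. CT26 is a mouse colorectal carcinoma line, grown here in BALB/c mice, and the other 32 tumours received vehicle, celecoxib (a drug against COX-2, the inducible enzyme of prostaglandin synthesis) or both drugs. RNA of whole tumours was sequenced from the 3′ ends of transcripts, and each value is a count per gene.

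Both groups carried the same implanted line and received the same drug, 200 µg of antibody per dose in 2 doses, starting on day 7 after injection, within a treatment period of 7 days. The R and NR labels are not defined in the sources used here, and neither the growth of a tumour nor the time of its scoring is given with them. Collection is put at day 7 of treatment by the tissue label but at day 4 by the extraction protocol, a contradiction that stands in the labels. Nothing in the labels says that each tumour came from a separate animal, so the spread behind each p-value is that between samples and may be technical. The numbers of the R tumours (R 1 to R 4) only name them. The other groups used below are 9 vehicle tumours, which carry the label NR throughout, and tumours given the antibody with celecoxib at 30 mg/kg, of which 12 were R and 4 NR.

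PD-1 is an inhibitory receptor on activated T cells, and antibodies against it release T cells from signals delivered by its ligands on tumour and myeloid cells. Released T cells and natural killer (NK) cells kill with granzymes and perforin and secrete interferon-gamma, which induces antigen presentation, the chemokines CXCL9 and CXCL10 and the PD-1 ligand itself. Poorly oxygenated tumour regions instead stabilise the transcription factor HIF-1, which raises glucose uptake, glycolysis and the vascular growth factor VEGF-A.

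The 49 libraries held 4251251 to 13671294 counts (median 7670623). The R tumours held 5954410 to 11559488 and the NR tumours 6003336 to 13671294 counts, a difference below the spread of either group (two-sided exact permutation test, p = 0.744, against a smallest possible p of 0.00084). Transcripts of skeletal muscle, a tissue that is not tumour, were high (list mean over 3 log2 CPM) in R 2, R 3 and 3 NR tumours. Their list mean was -0.24, 3.58, 3.63 and -0.10 log2 CPM in R 1 to R 4, and -0.72 to 4.46 (median -0.030) in the NR tumours. Fits below without the tumours that held other tissue therefore keep only R 1 and R 4 of the R tumours. CPM are counts scaled to a common normalized library size. Of 12 colon epithelial marker genes 8 had enough counts to be tested. The keratin gene Krt18 ranged from 4.92 to 31.3 CPM (median 15.5) in the NR tumours, whereas Epcam, the epithelial adhesion molecule gene, had a median of 0.211 CPM there.

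No gene differed between R and NR tumours past the limit of 0.05 on the adjusted p. edgeR tested 14247 genes and called 0 (0% of those tested), with a smallest adjusted p of 0.389, and DESeq2 and limma-voom also called 0. At an unadjusted p under 0.05 there were 544 genes higher in R (3.82% of those tested) and 379 lower (2.66%), 923 in all (6.48%). The median change over all genes was 0.0039 on the log2 scale, 50.7% of genes were above 0, and the median standard error (SE) of a gene was 0.24. In every sentence below, a change is the fitted log2 difference of R from NR unless another contrast is named, and values of 4 tumours are in the order R 1 to R 4.

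Groups that do not overlap were rare. AA467197 was the only gene with all 4 R tumours above all 13 NR tumours (0.00702% of genes tested), and 7 genes had all R tumours below all NR tumours (0.0491%), 8 genes in all (0.0562%). There are 2380 ways to choose 4 of 17 tumours, so among 14247 genes several are expected to separate by chance in each direction. These counts are therefore not evidence of a difference between the groups. AA467197 (chromosome 2, 122636986 to 122641191), the mouse counterpart of a gene for a small mitochondrial protein linked to respiratory complex IV, measured 274, 129, 147 and 140.5 CPM in the R tumours. The NR tumours ranged from 32.95 to 118 CPM (median 53.4), so the lowest R tumour lay just above the highest NR tumour. The change was 1.34 (SE 0.29, edgeR adjusted p 0.389), the smallest adjusted p of the comparison. Vehicle tumours had a median of 69.7 CPM and R tumours of the combination one of 117 CPM.

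The 7 genes on the other side were Csad, Atp6v0a1, Cyren, Spon2, Napepld, Ccdc33 and Mtch1. Csad (chromosome 15, 102176999 to 102204724), whose enzyme makes the precursor of taurine, measured 48.5, 39.3, 46.1 and 52.6 CPM in R tumours. It ranged from 52.9 to 82.97 CPM (median 68.2) in NR tumours, a change of -0.53 (SE 0.13, edgeR adjusted p 0.591). Atp6v0a1, a membrane subunit of the proton pump that acidifies lysosomes, measured 27.3, 19.5, 26.1 and 25.9 CPM against 30.6 to 58.3 CPM (median 42.3), with R 2 standing below the other R tumours. Its change was -0.81 (SE 0.19, edgeR adjusted p 0.591). Spon2, a secreted matrix protein, had a change of -0.82 (SE 0.27), and Cyren, which restrains DNA end joining, -0.55 (SE 0.15). Napepld, an enzyme of lipid amide synthesis, and Ccdc33 were low in all tumours, with highest NR values of 6.09 and 2.91 CPM. In Mtch1, a mitochondrial outer membrane protein, the R tumours reached 304 CPM and the lowest NR tumour stood at 305 CPM, so the separation there was smaller than the scatter within the R group.

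The other genes with the smallest p among those higher in R mostly had high values in R 1 and R 2. Bsg, which encodes basigin, a chaperone of lactate transporters, measured 719, 949.6, 223 and 232 CPM against 139 to 436 CPM (median 222) in NR tumours. Its change was 1.18 (SE 0.33, edgeR adjusted p 0.653), with R 3 and R 4 close to the NR median. Bhlhe40, a repressor that responds to low oxygen and to the clock, measured 138, 262, 32.8 and 20.6 CPM against 17.4 to 83.1 CPM (median 31.2). The mitochondrial adenylate kinase gene Ak4 measured 9.63, 6.74, 1.64 and 1.74 CPM against 0.45 to 4.27 CPM (median 1.18). Abi3bp, a matrix protein gene, measured 36.7, 55.6, 14.2 and 26.1 CPM against 4.16 to 31.8 CPM (median 8.78). In each of these genes R 1 and R 2 exceeded every NR tumour and R 3 and R 4 did not.

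In Brd2, Slc25a1 and Upp1 R 4 was high too, whereas Nr1d1, described with the clock genes below, was high in R 1 and R 2. Brd2, a chromatin reader, measured 429, 542, 283 and 499 CPM against 199.5 to 396 CPM (median 273), with R 3 inside the NR range, a change of 0.60 (SE 0.15, edgeR adjusted p 0.653). Slc25a1, the citrate carrier of mitochondria, measured 57.8, 67.3, 35.6 and 53.2 CPM against 28.1 to 41.2 CPM (median 35.9), again with R 3 alone inside that range. Upp1, which breaks down uridine, measured 101, 92.96, 64.2 and 173 CPM against 34.9 to 109 CPM (median 56.6), and R 4 alone exceeded every NR tumour. Hmga1b is a near-identical copy of the chromatin gene Hmga1, so its counts may be shared with that gene, and its change was 1.57 (SE 0.42).

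Among the genes lower in R, Slc46a1, the intestinal and macrophage folate transporter, measured 2.32, 2.17, 2.46 and 2.83 CPM against 2.51 to 6.62 CPM (median 4.88). R 1, R 2 and R 3 lay below every NR tumour and R 4 just above the lowest one. Ccl24, a chemokine of eosinophils made by macrophages, measured 2.85, 1.93, 1.44 and 1.83 CPM against 2.5 to 8.9 CPM (median 4.92), a change of -1.45 (SE 0.43, edgeR adjusted p 0.659). Mmp9, a matrix-degrading protease of myeloid cells, measured 7.14, 13.1, 13.4 and 13.3 CPM against 13.2 to 37.5 CPM (median 23.6), a change of -1.11 (SE 0.34, edgeR adjusted p 0.659), with R 1 below the other R tumours. The actin-binding Synpo (-0.73, SE 0.19), the sugar phosphate enzyme gene Pgm2l1 (-0.76, SE 0.20), the zinc finger gene Zscan20 (-0.91, SE 0.25) and the ephrin receptor gene Ephb3 (-0.98, SE 0.28) complete the 10. In Synpo, Pgm2l1 and Zscan20 the lowest values of the 17 tumours were those of R 1 and R 2.

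**Figure D1:**
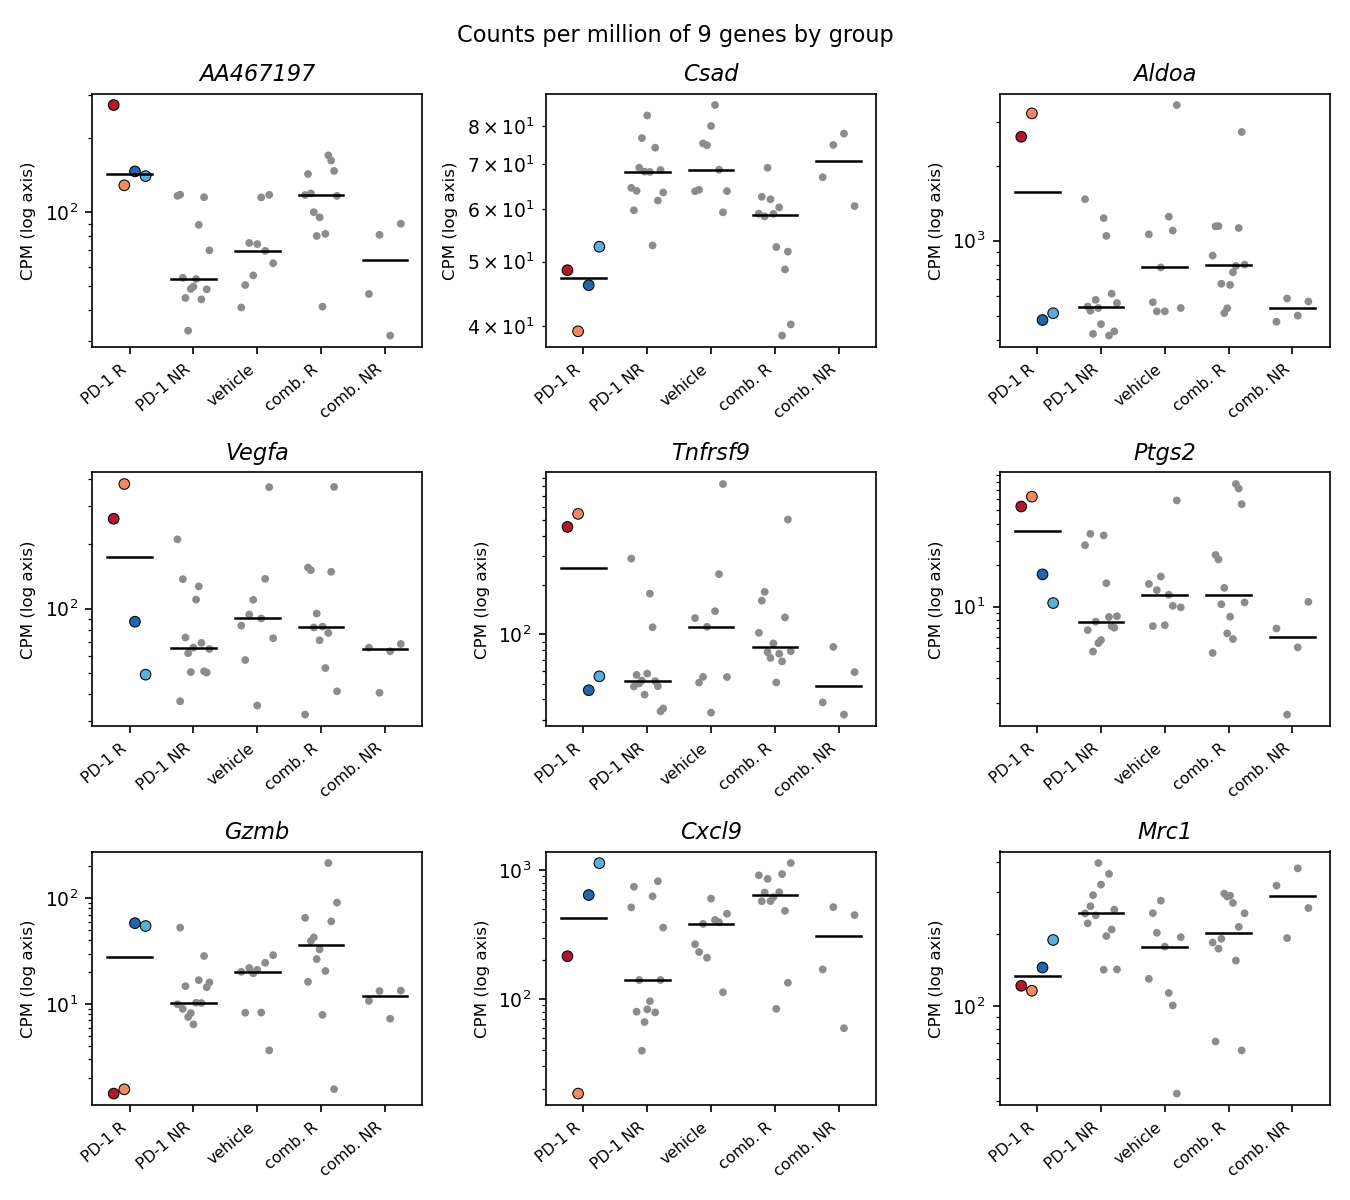
CPM (log axes, which differ between panels) of 9 genes in the anti-PD-1 R tumours (R 1 red, R 2 orange, R 3 dark blue, R 4 light blue), and in grey the anti-PD-1 NR, vehicle, combination R and combination NR tumours (comb.: antibody with celecoxib); each point is a tumour and each bar the median of its group. The R tumours of AA467197 and Csad lie apart from the NR tumours, whereas in Aldoa, Vegfa and Tnfrsf9 R 1 and R 2 lie above every NR tumour and R 3 and R 4 do not, and in Gzmb R 1 and R 2 lie below every NR tumour and R 3 and R 4 above.

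The 4 R tumours were not alike. Across all genes tested, log2 CPM of R 1 and R 2 correlated at 0.954 and those of R 3 and R 4 at 0.959, while the other 4 pairs of R tumours lay between 0.88 (R 2 with R 4) and 0.923 (R 1 with R 3). For comparison, 78 pairs of NR tumours ranged from 0.921 to 0.984 (median 0.953). R 3 was most alike to an NR tumour (NR 13, 0.969), as was R 4 (NR 4, 0.965), whereas R 1 and R 2 were most alike to each other. These correlations are across genes within pairs of libraries, describe likeness only and carry no test. On the first principal component of the 17 tumours, which held 28.6% of the variance, R 2 and R 1 took the last places and R 4 and R 3 the third and the fifth.

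R 2 lay above every NR tumour in 2000 genes (14% of those tested) and below every NR tumour in 2537 (17.8%). The same counts were 1664 (11.7%) and 1880 (13.2%) for R 1. They were smaller for R 4, with 1106 (7.76%) and 1029 (7.22%), and for R 3, with 522 (3.66%) and 569 (3.99%). The median SD of a gene over tumours was 0.46 log2 units in R and 0.40 in NR, and the SD was the larger in R for 59.2% of genes. R 1 and R 2 also had fewer genes with a count (15834 and 16104) than R 3 and R 4 (17637 and 17260). Mitochondrially encoded transcripts took 5.09, 5.18, 4.26 and 3.14% of counts in R 1 to R 4. Their part in what follows was not tested.

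**Figure D2:**
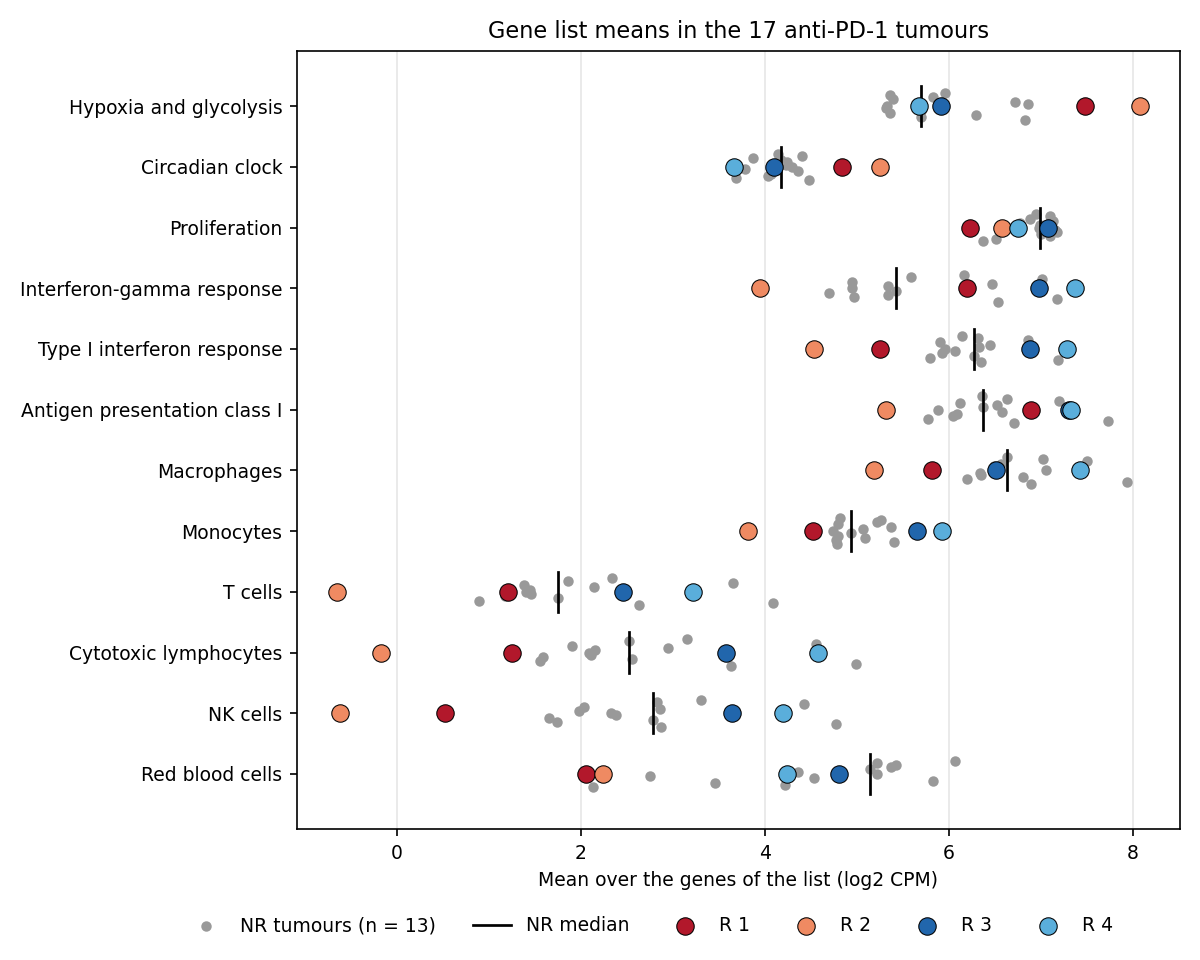
Mean log2 CPM over the tested genes of 12 lists (horizontal axis) in each of the 17 anti-PD-1 tumours; grey points are NR tumours, black bars their median and coloured points the R tumours. R 1 and R 2 lie to the right of all NR tumours for hypoxia and glycolysis and for the circadian clock, where R 4 lies to their left. R 2 lies to the left of all NR tumours for both interferon lists, macrophages, T cells, cytotoxic lymphocytes and NK cells.

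Genes of hypoxia and glycolysis had their highest values of the 17 tumours in R 1 and R 2, and not in R 3 or R 4. All 25 members had a positive fitted change, against 50.7% of all genes, with a median change of 1.07 against 0.0039. At an unadjusted p under 0.05, 23 of 25 were higher, against 3.82% of all genes, and 0 passed the adjusted limit. The list mean was 7.48, 8.07, 5.91 and 5.68 log2 CPM in R 1 to R 4 and 5.32 to 6.86 (median 5.7) in NR tumours. R 1 exceeded every NR tumour in 20 of the 25 genes and R 2 in 24, while R 3 and R 4 did so in 1 gene each.

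The promoters of 2 members, Ldha and Bnip3, are shown because they hold ACGTG, the core of the element that HIF-1 binds. Sequences are from RefSeq on GRCm38, from 250 bases before to 50 after the start, 5′ to 3′, with ACGTG on either strand in capitals (a palindromic CACGTG counts as 2 overlapping matches). Both genes and the letters searched were picked after the values were seen. Ldha has 2 promoters in this set, and that shown was picked by its number of matches. The Ldha promoter shown is at chr7:46845554-46845853 (plus strand) and has 5 matches. The Bnip3 promoter is at chr7:138909457-138909756 (minus strand) and has 2.
Ldha: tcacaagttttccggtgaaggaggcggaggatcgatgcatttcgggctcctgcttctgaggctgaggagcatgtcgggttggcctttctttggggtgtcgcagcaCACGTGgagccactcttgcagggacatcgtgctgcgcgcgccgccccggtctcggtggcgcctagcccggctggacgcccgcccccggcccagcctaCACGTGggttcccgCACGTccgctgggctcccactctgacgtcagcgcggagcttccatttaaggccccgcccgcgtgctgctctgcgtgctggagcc
Bnip3: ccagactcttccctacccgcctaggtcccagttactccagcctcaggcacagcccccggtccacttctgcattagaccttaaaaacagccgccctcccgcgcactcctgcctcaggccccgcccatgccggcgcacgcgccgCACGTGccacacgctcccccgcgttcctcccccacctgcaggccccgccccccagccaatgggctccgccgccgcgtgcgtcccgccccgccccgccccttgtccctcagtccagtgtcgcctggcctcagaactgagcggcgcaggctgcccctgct
Of the 25 genes, 24 were matched, with 33 promoters, and 17 of these (51.5%) held ACGTG, against 19.6% of all 32851 promoters of that length. A match is a description of the letters and not a bound site.

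At the entry of glucose the list pattern was plain. Slc2a1, the glucose transporter GLUT1, measured 275, 438, 70.2 and 72.1 CPM in R 1 to R 4. NR tumours ranged from 25.1 to 194 CPM (median 66.9), a change of 1.24 (SE 0.55, edgeR adjusted p 0.739). Hk2, the inducible hexokinase, measured 394, 573, 119 and 150.05 CPM against 70.6 to 300.4 CPM (median 132), a change of 1.08 (SE 0.39, edgeR adjusted p 0.701). In both genes R 1 and R 2 stood above every NR tumour and R 3 and R 4 stood within their range. Hk1, Gpi1, Pfkl and Pfkp, which carry out the adjoining steps, had changes of 0.55, 1.07, 1.06 and 0.61 (SE 0.23, 0.36, 0.37 and 0.23).

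Aldoa (chromosome 7, 126795234 to 126800751), the aldolase that splits fructose bisphosphate, measured 2609.5, 3239, 480.5 and 512 CPM against 416 to 1466 CPM (median 544). Its change was 1.33 (SE 0.40, edgeR adjusted p 0.659). Tpi1, triose phosphate isomerase, measured 681, 1031, 308 and 248 CPM against 205 to 489 CPM (median 255) and had the smallest unadjusted p of the list (0.00123), with 0.97 (SE 0.28, edgeR adjusted p 0.659). R 3 and R 4 lay close to the NR median in both genes. For Pkm, the last kinase of glycolysis, the R tumours measured 1664, 2540.01, 439.6 and 593 CPM, so R 3 and R 4 were below the NR median of 703. Ldha, which makes lactate, measured 1589, 2131, 1048 and 939.6 CPM against 471 to 1434 CPM (median 846). Pdk1, which diverts pyruvate from mitochondria, had a change of 1.03 (SE 0.42). Gapdh, Pgk1, Pgam1 and Eno1 have near-identical copies in the genome, so their fitted log2 changes of 0.98, 1.78, 1.01 and 0.84 are uncertain.

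Targets of HIF-1 outside glycolysis included the largest change of the list. Car9, the acid-exporting carbonic anhydrase that is used as a hypoxia marker, measured 299.5, 546, 29.9 and 9.6 CPM against 6.02 to 182 CPM (median 19.7), a change of 2.25 (SE 0.79, edgeR adjusted p 0.701). R 4 lay below the NR median in this gene. Ndrg1, a stress-induced gene, measured 2027, 3079, 297 and 191 CPM against 137 to 1298 CPM (median 231), a change of 1.74 (SE 0.63, edgeR adjusted p 0.701). Bnip3, which drives the removal of mitochondria, measured 642, 1011, 122 and 113 CPM against 57.03 to 516 CPM (median 109.9), a change of 1.43 (SE 0.57, edgeR adjusted p 0.734). The collagen hydroxylase gene P4ha1 measured 187, 358, 64.4 and 47.98 CPM against 40.96 to 158 CPM (median 62.1), a change of 1.18 (SE 0.38, edgeR adjusted p 0.684). Vegfa (chromosome 17, 46016993 to 46032369), the vascular growth factor, measured 262, 380.1, 86.99 and 49.3 CPM against 37.1 to 210.2 CPM (median 65.96), a change of 1.19 (SE 0.46, edgeR adjusted p 0.734). All these genes repeat the order of tumours seen for the list.

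The transcript of HIF-1 alpha itself, Hif1a, had another order, with 158, 105, 134 and 132 CPM against 89.9 to 125 CPM (median 107), a change of 0.29 (SE 0.13, edgeR adjusted p 0.751). R 1, R 3 and R 4 lay above every NR tumour and R 2 within their range. Adm, a vasodilator gene, had the smallest change of the list (0.15, SE 0.52), with the highest value of the 17 tumours in R 2 (8.31 CPM) and the lowest in R 1 (0.714 CPM). Without R 2 the median of the list was 0.59, with 1 of 25 genes higher at an unadjusted p under 0.05, against 1.82% of all genes in that fit. Without the tumours that held other tissue, R 2 and R 3 among them, it was 1.01, with 24 of 25 genes positive. There 7 were higher at an unadjusted p under 0.05, against 3.47% of all genes in that fit. One vehicle tumour had a list mean of 8.25 log2 CPM, above R 2, and the vehicle median was 6.36. Among R tumours of the combination the highest list mean was 7.86 (median 5.94).

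**Figure D3:**
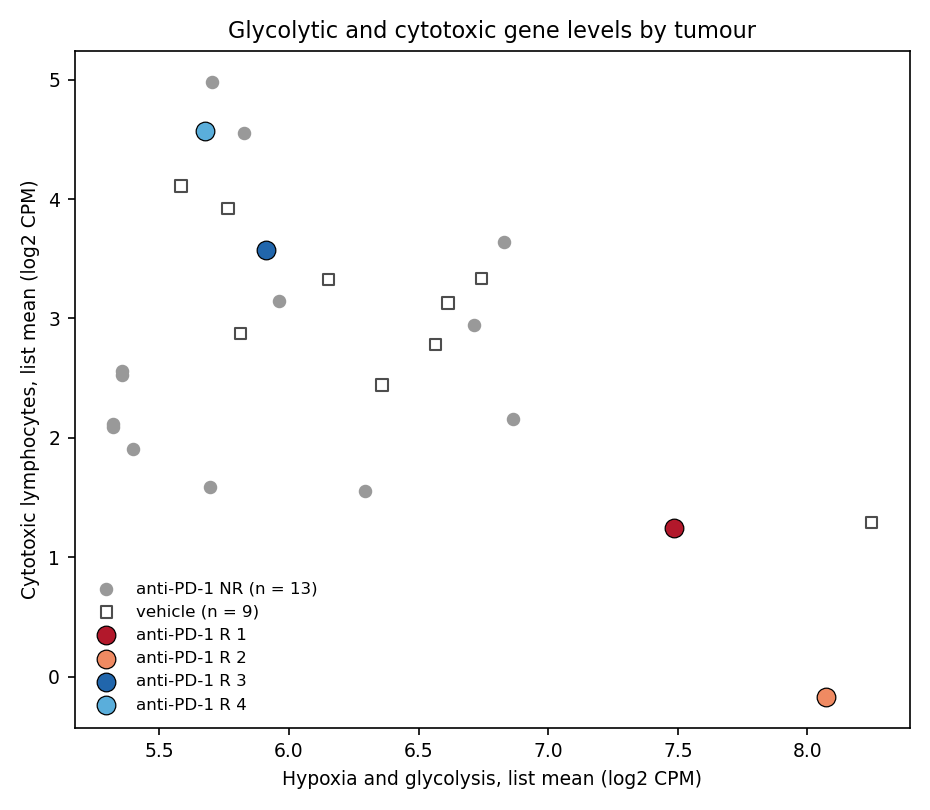
Mean log2 CPM of the hypoxia and glycolysis list (horizontal axis) against that of the cytotoxic lymphocyte list (vertical axis) in the 4 anti-PD-1 R tumours (coloured), the 13 NR tumours (grey points) and 9 vehicle tumours (open squares). R 1 and R 2 sit at the lower right, below every NR tumour on the vertical axis and to the right of all of them, with a single vehicle tumour further right, while R 3 and R 4 sit among the NR and vehicle tumours at the upper left.

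Interferon-gamma target genes were above 0 in all 34 members tested, with a median change of 0.57. At an unadjusted p under 0.05, 4 of 34 were higher (Irgm1, Tgtp1, Tgtp2 and the tRNA synthetase gene Wars), against 3.82% of all genes. The list mean was 6.2, 3.95, 6.98 and 7.37 log2 CPM in R 1 to R 4 against 4.69 to 7.18 (median 5.42) in NR tumours, so R 4 had the highest and R 2 the lowest mean of the 17 tumours. R 2 lay below every NR tumour in 23 of the 34 genes, and R 4 above every NR tumour in 17. With limma-voom, 29 of 34 were positive with a median of 0.44, and without R 4 the edgeR median was 0.21 with 23 positive. Without R 2 it was 0.89.

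The promoters of the transcription factor gene Irf1 and of Igtp, an interferon-inducible GTPase of cell-autonomous defence, are shown because each holds a TTCNNNGAA motif, the letters of the gamma-activated site of interferon target genes. They were chosen after the values were seen, and the motif, which is a palindrome and was searched on both strands, is in capitals. The Irf1 promoter is at chr11:53769764-53770063 and that of Igtp at chr11:58199306-58199605, both on the plus strand of GRCm38. Irf1 has 2 promoters in this set, and that shown was picked by its number of matches.
Irf1: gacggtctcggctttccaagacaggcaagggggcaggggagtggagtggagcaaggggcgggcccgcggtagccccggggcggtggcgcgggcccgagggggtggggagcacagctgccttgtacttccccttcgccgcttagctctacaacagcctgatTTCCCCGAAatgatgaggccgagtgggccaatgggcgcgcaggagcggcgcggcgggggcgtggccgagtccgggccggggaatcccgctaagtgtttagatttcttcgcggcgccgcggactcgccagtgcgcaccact
Igtp: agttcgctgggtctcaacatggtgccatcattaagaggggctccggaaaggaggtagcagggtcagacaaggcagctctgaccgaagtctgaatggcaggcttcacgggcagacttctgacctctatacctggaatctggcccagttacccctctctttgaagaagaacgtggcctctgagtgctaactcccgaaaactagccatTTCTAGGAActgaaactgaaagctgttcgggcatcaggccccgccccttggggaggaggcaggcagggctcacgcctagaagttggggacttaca
Of the 37 genes listed 25 were matched, with 29 promoters. TTCNNNGAA was in 11 of these (37.9%), against 8.30% of all promoters, and the interferon-stimulated response element, which interferon regulatory factors bind, was in 12 (41.4%), against 3.44%. In the hypoxia list these motifs were in 0 and 1 of 33 promoters.

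Irf1 measured 947, 181, 516 and 826 CPM against 155 to 1094 CPM (median 376) in NR tumours, so R 1 and R 4 were high and R 2 was near the lowest NR tumour, with a change of 0.53 (SE 0.40, edgeR adjusted p 0.902). Igtp measured 339, 54.9, 483 and 825 CPM against 70.97 to 619 CPM (median 143), a change of 0.83 (SE 0.51, edgeR adjusted p 0.836). R 2 was below every NR tumour in Igtp. Irgm1, a GTPase of the same family as Igtp, measured 36.2, 9.03, 86.99 and 139 CPM against 19.7 to 55.9 CPM (median 32.4), a change of 0.94 (SE 0.39, edgeR adjusted p 0.734), with R 3 and R 4 above every NR tumour. Tgtp1 and Tgtp2 are near-identical copies, so the split of counts between them is uncertain (1.45, SE 0.59, and 1.33, SE 0.57).

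Among the chemokines that draw T cells R 3 and R 4 were again high and R 2 low. Cxcl9 (chromosome 5, 92321347 to 92328079) measured 215, 18.4, 644 and 1139 CPM against 39.7 to 825 CPM (median 141), a change of 0.79 (SE 0.66, edgeR adjusted p 0.928). Cxcl10 measured 35.5, 9.27, 346 and 314 CPM against 54.03 to 344 CPM (median 95.3), a change of 0.47 (SE 0.54, edgeR adjusted p 0.958). Both R 1 and R 2 were below every NR tumour for Cxcl10, and R 3 was above every one. Cxcl11 measured 18.4, 2.65, 167 and 303 CPM against 19.2 to 209 CPM (median 49.8). Cd274, which encodes the PD-1 ligand PD-L1, measured 64.9, 8.55, 24.9 and 47.2 CPM against 5.75 to 73.3 CPM (median 16), a change of 0.79 (SE 0.52, edgeR adjusted p 0.853). Its highest R value was in R 1, unlike that of the chemokines. Ccl5, a chemokine made by T cells, measured 47.8, 12.2, 90.2 and 207 CPM against 24.9 to 382 CPM (median 48.1), a change of -0.068 (SE 0.65, edgeR adjusted p 0.998). Ccr7, the receptor that guides naive T cells and mature dendritic cells to lymph nodes, had a change of -0.50 (SE 0.39). Over the 14 chemokine and receptor genes tested the median change was -0.11, which turned to 0.18 without R 1, 0.27 without R 2, 0.29 without NR 2 and 0.0038 without NR 11, and was -0.68 without R 4. R 2 was below every NR tumour in 13 of them.

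Antigen presentation on class I molecules was positive in 14 of 15 genes, with a median of 0.29 and 0 at an unadjusted p under 0.05. Without R 4, 7 were positive (median -0.0043). Without R 2 the median was 0.56, with 2 of 15 higher at an unadjusted p under 0.05, against 1.82% of all genes in that fit. The list mean was 6.89, 5.31, 7.3 and 7.33 log2 CPM against 5.77 to 7.73 (median 6.37). Psmb9, an immunoproteasome subunit, measured 182, 57.2, 381 and 384 CPM against 74.5 to 334 CPM (median 163), a change of 0.62 (SE 0.41, edgeR adjusted p 0.865), with R 3 and R 4 above and R 2 below all NR tumours. The nonclassical class I genes H2-T23 and H2-T22, whose family shares sequence, had changes of 0.69 and 0.38 (SE 0.56 and 0.32). For class II molecules 3 of 10 were positive (median -0.10). That direction turned without R 2 (7 positive, median 0.19), without NR 2 (9, 0.18) and with limma-voom (6, 0.012), and the median was -0.48 without R 4. H2-Aa, a class II chain, measured 692, 222, 443 and 607 CPM against 136 to 2817 CPM (median 372), and 3 NR tumours exceeded the highest R tumour. H2-Eb1, another chain, and H2-Oa, which regulates peptide loading, had changes of -0.39 and -0.71 (SE 0.64 and 0.78).

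Genes of the type I interferon response also set the R tumours apart from each other. Their list mean was 5.25, 4.54, 6.88 and 7.28 log2 CPM in R 1 to R 4 against 5.8 to 7.19 (median 6.27) in NR tumours, with R 1 and R 2 below and R 4 above every NR tumour. Ifi44 measured 153, 103, 1019 and 1388 CPM against 410.2 to 1049 CPM (median 531), and Mx1, an antiviral GTPase, 6.78, 7.95, 84.4 and 116 CPM against 30.4 to 108 CPM (median 50.9). Of the 27 genes R 1 was below every NR tumour in 17, R 2 in 23, and R 4 above every NR tumour in 15. Of the fitted changes 17 were positive, and 0 passed at an unadjusted p under 0.05. The median was 0.10 with edgeR and -0.30 with limma-voom, and the difference between the groups' mean log2 CPM was -0.29. Without R 4 the edgeR median was -0.45, and without R 2 it was 0.40. The members of smallest p were Bst2, which tethers virus particles (0.76, SE 0.45), the interferon-induced Rtp4 (0.44, SE 0.32) and Zbp1, a sensor of unusual nucleic acid (0.57, SE 0.45).

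T cell genes were not higher in the tumours labelled R. Of 23 T cell genes 6 were positive, the median change was -0.23, and 0 reached an unadjusted p under 0.05 in either direction. The list mean was 1.2, -0.65, 2.46 and 3.22 log2 CPM in R 1 to R 4 and 0.89 to 4.09 (median 1.75) in NR tumours. R 4 and R 3 took the third and the fifth places of the 17 tumours and R 2 the last. In whole tumours, fewer T cells and less RNA per T cell cannot be told apart, and the same holds for the other cell types below.

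Cd3e, part of the T cell receptor complex, measured 1.43, 0.361, 4.51 and 12.8 CPM against 1.58 to 16.9 CPM (median 3.65), a change of -0.25 (SE 0.69, edgeR adjusted p 0.996). Cd8a, a co-receptor chain that marks cytotoxic T cells, measured 0.714, 0.12, 5.03 and 13.1 CPM against 0.164 to 45.7 CPM (median 1.41), a change of -0.66 (SE 1.08, edgeR adjusted p 0.982), and 2 NR tumours exceeded the highest R tumour. Its SE was over 1 log2 unit. Cd4, the co-receptor of helper and regulatory T cells and also of some myeloid cells, measured 3.03, 0, 2.46 and 2.65 CPM against 0.67 to 8.39 CPM (median 2.12), with no count in R 2, which allows a level of up to 0.361 CPM there (3 counts, counting error only). Cd8b1, the partner chain of Cd8a, had a change of -0.69 (SE 0.95), Thy1, a surface marker of T cells and fibroblasts, one of -0.49 (SE 0.37), and Cd5, a brake on receptor signals, one of 0.69 (SE 0.55). Trbc2, a receptor constant segment that shares sequence with Trbc1, had the most negative change of the list (-1.43, SE 1.01). The list median was positive without R 2 (0.12) and without NR 2 (0.10), and -0.81 without R 4. It was also positive without the tumours that held other tissue (0.10).

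Cytotoxic genes scattered widely among R tumours. The list mean was 1.25, -0.17, 3.57 and 4.57 log2 CPM in R 1 to R 4, a wider range than that of the 13 NR tumours, 1.56 to 4.98 (median 2.52). Gzmb (chromosome 14, 56258838 to 56262260), granzyme B, measured 1.43, 1.57, 58.1 and 54.6 CPM against 6.43 to 52.6 CPM (median 10.3), a change of 0.89 (SE 0.64, edgeR adjusted p 0.891), so that R 1 and R 2 lay below every NR tumour and R 3 and R 4 above every one. Gzma, granzyme A, measured 7.85, 2.53, 148 and 355 CPM against 19.3 to 298 CPM (median 57.5), a change of 0.53 (SE 0.74, edgeR adjusted p 0.967). Ifng, the interferon-gamma gene, measured 1.78, 0.12, 7.59 and 29.3 CPM against 0.352 to 22.6 CPM (median 1.44), a change of 0.98 (SE 0.83, edgeR adjusted p 0.929), with R 4 above every NR tumour. Prf1, perforin, was low throughout, with 0.178, 0, 1.23 and 4.2 CPM against 0.225 to 8.54 CPM (median 0.773). Of 17 cytotoxic genes 10 were positive (median 0.12) and 0 reached an unadjusted p under 0.05. Gzmc, a granzyme gene with close relatives in the same cluster, had the smallest p (1.03, SE 0.72). With limma-voom the list median was -0.17, the difference of the mean log2 CPM was -0.45, and without R 4 the edgeR median was -0.77. The direction of the list therefore differs between methods and turns without R 4.

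NK cell genes had the same pattern, with list means of 0.52, -0.62, 3.64 and 4.2 log2 CPM against 1.65 to 4.77 (median 2.79) in NR tumours. Their median change, near 0 and of no stable sign when single tumours were left out (-0.83 without R 4 to 0.43 without R 2), was 0.037 with edgeR and -0.83 with limma-voom, and the difference of the mean log2 CPM was -0.83. Of the 12 genes tested 7 were positive with edgeR and 0 with limma-voom. Within the list the smallest p values were those of Klra9 and Klra7, receptors of a family of close copies, whose counts are uncertain (-0.76 and -0.55, SE 0.86 and 0.88). Klrc1, an inhibitory NK receptor outside this list, measured 2.68, 1.08, 15.5 and 13.8 CPM against 1.63 to 90.9 CPM (median 11.98). In all 12 genes of the list R 3 and R 4 exceeded R 1 and R 2.

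Among inhibitory receptors, Pdcd1, the target of the antibody, measured 0.892, 0.12, 4.51 and 10.8 CPM against 0.787 to 27.5 CPM (median 2.11), a change of -0.52 (SE 1.02, edgeR adjusted p 0.989). Havcr2, which encodes TIM-3, measured 1.25, 0.361, 5.33 and 10.1 CPM against 1.8 to 15.5 CPM (median 3.28), a change of -0.13 (SE 0.62, edgeR adjusted p 0.998). Both genes were lowest in R 2. Lag3 and Tigit had too few counts to be tested, with 13 and 37 counts in all 49 libraries. A pair of genes of that list went the opposite way. Tnfrsf9 (chromosome 4, 150914562 to 150946102), the costimulatory receptor 4-1BB, measured 452, 543, 45.5 and 55.4 CPM against 33.9 to 289.7 CPM (median 51.8), a change of 1.76 (SE 0.60, edgeR adjusted p 0.685). Layn, layilin, measured 44.1, 57.8, 9.44 and 8.68 CPM against 8.38 to 40.5 CPM (median 13.03), a change of 0.87 (SE 0.42, edgeR adjusted p 0.759). In both, R 1 and R 2, which had the lowest T cell list means of the R tumours, exceeded every NR tumour. High Tnfrsf9 was not confined to them. One vehicle tumour measured 827 CPM, with a T cell list mean of 0.84 log2 CPM, and an R tumour of the combination 502 CPM, with a mean of 0.010. Cxcr6, a chemokine receptor of resident T cells, had a change of -0.93 (SE 0.85). Across the list, 3 of 10 genes were positive and the median was -0.13, and without R 4 the median was -0.93. The median turned positive without R 1 (0.031), R 2 (0.22), NR 2 (0.079) or NR 11 (0.070) and without the tumours that held other tissue (0.17).

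Foxp3, the defining factor of regulatory T cells, measured 5.35, 0.602, 2.67 and 4.02 CPM against 0.287 to 4.83 CPM (median 1.63), a change of 0.71 (SE 0.51, edgeR adjusted p 0.889), and only R 1 exceeded every NR tumour. The regulatory T cell list had means of 2.69, 1.07, 3.01 and 3.71 log2 CPM in R 1 to R 4 against 1.86 to 3.55 (median 2.66) in NR tumours. R 4 thus lay above and R 2 below every NR tumour, whereas Foxp3 was highest in R 1. The median change of the list was 0.092, with 5 of 8 genes positive. It was -0.30 without R 4 (2 positive), 0.31 without R 2 (8 positive) and -0.058 with limma-voom (2 positive). Il2ra, the interleukin-2 receptor chain of these cells, measured 6.6, 0.482, 7.8 and 11.97 CPM against 2.28 to 9.6 CPM (median 4.41), and the actin-capping Capg had a change of 0.24 (SE 0.17).

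Of 20 macrophage genes 17 had a negative fitted change, with a median of -0.37 and 2 lower at an unadjusted p under 0.05 (2.66% of all genes). The list mean was 5.82, 5.19, 6.51 and 7.43 log2 CPM against 6.19 to 7.93 (median 6.63), so R 1 and R 2 lay below every NR tumour and R 4 near the top. Mrc1, the mannose receptor, measured 122, 116, 145 and 189 CPM against 142 to 398 CPM (median 245), a change of -0.82 (SE 0.32, edgeR adjusted p 0.734), with all 4 R tumours below the NR median. Csf1r, the growth factor receptor of macrophages, measured 67.8, 46.2, 114 and 238 CPM against 84.3 to 436 CPM (median 206), a change of -0.99 (SE 0.46, edgeR adjusted p 0.757). Trem2, a lipid receptor of tumour macrophages, measured 7.49, 5.78, 12.1 and 23.03 CPM against 12.8 to 36.3 CPM (median 17.05). Without R 4 the list median was -0.99 and without R 2 it was -0.17.

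Monocyte genes were positive in 10 of 11 (median 0.28, and -0.0066 with limma-voom), and the edgeR median was -0.12 without R 4 and 0.54 without R 2. Their list mean was 4.52, 3.82, 5.66 and 5.93 log2 CPM against 4.74 to 5.4 (median 4.94), with R 1 and R 2 below every NR tumour and R 3 and R 4 above every one. Ifitm6, an interferon-inducible gene of monocytes, was the only member of the 11 at an unadjusted p under 0.05 (0.91, SE 0.41), against 3.82% of all genes. The matrix gene Fn1 (0.46, SE 0.29) and the haptoglobin gene Hp (0.72, SE 0.60) followed. Neutrophil genes were low throughout, with list means of 1.69, 0.56, 2.05 and 1.95 log2 CPM against 1.02 to 2.44 (median 1.55). S100a8, an abundant neutrophil gene, measured 2.5, 0.602, 2.26 and 1.92 CPM against 0.328 to 3.92 CPM (median 1.35). Lcn2, an iron-binding defence protein, and Csf3r, the growth factor receptor of neutrophils, had changes of 0.89 and 0.54 (SE 0.55 and 0.58). Of the 10 neutrophil genes tested 9 were positive (median 0.26), but 5 with limma-voom (median 0.082), and the difference of the mean log2 CPM was -0.011. The 1 negative member (-1.11) was lower at an unadjusted p under 0.05, against 2.66% of all genes, and 0 were higher. For type 1 conventional dendritic cells, which cross-present tumour antigen, 2 of 11 genes were positive (median -0.18), but without R 2 there were 6 (median 0.10), and without R 1 the median was -0.016. Xcr1, their chemokine receptor, measured 3.21, 0.482, 12.8 and 16.5 CPM against 2.02 to 48.8 CPM (median 5.56), and Batf3, a factor they need, 11.2, 2.89, 11.1 and 19.01 CPM against 5.85 to 26.4 CPM (median 7.99). The adhesion gene Cadm1, the integrin gene Itgax and Wdfy4, which is needed for cross-presentation, had changes of -0.18, -0.44 and -0.49 (SE 0.13, 0.36 and 0.40). R 2 had the lowest value of the 17 tumours in Xcr1 and Batf3.

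**Figure D4:**
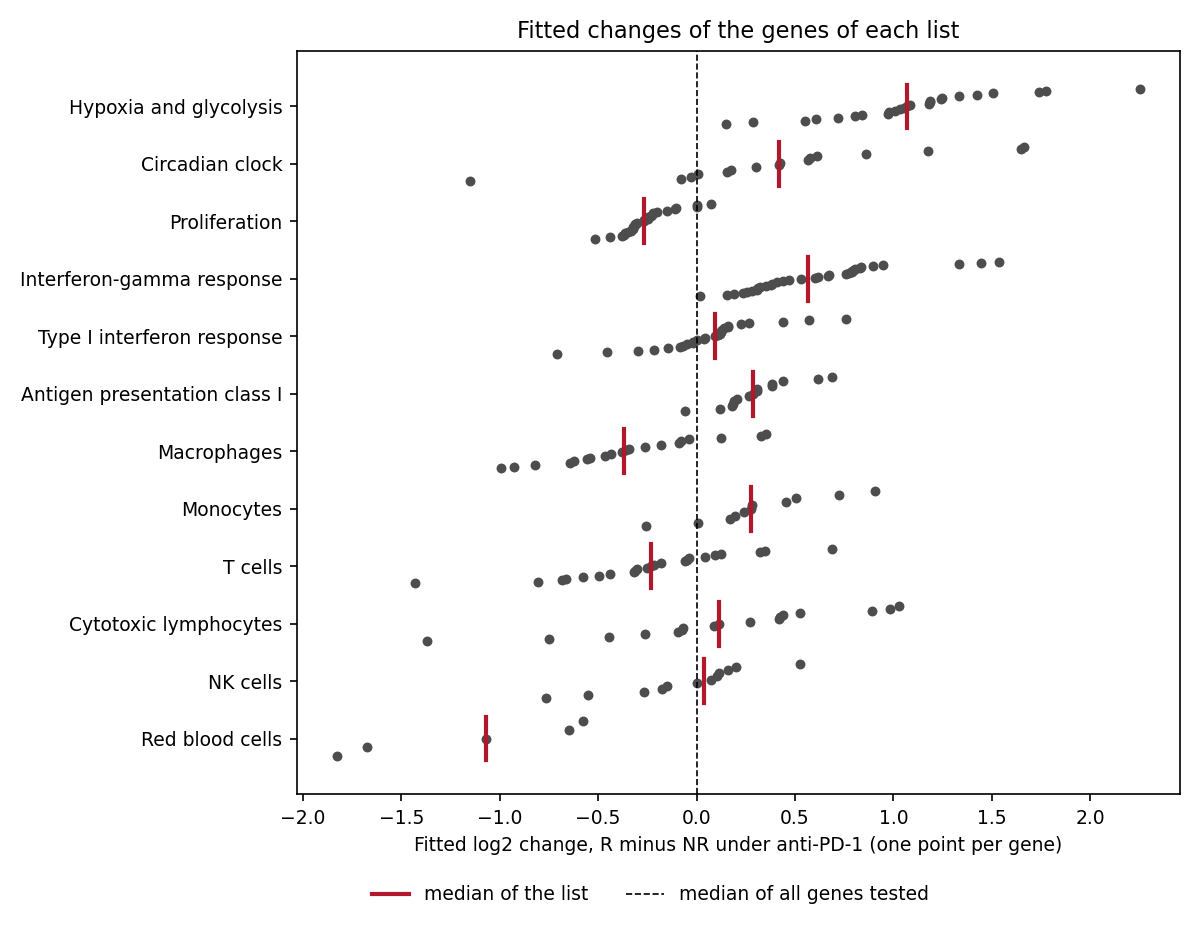
Fitted log2 change of R from NR (horizontal axis) for each tested gene of 12 lists, with the list median (red bar) and the median of all 14247 genes (dashed line). With edgeR all 25 hypoxia and glycolysis genes and all 34 interferon-gamma genes lie right of 0 (24 and 29 with limma-voom), while T cell and macrophage genes lie mostly left of it.

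The target of celecoxib and other genes of tumour-promoting inflammation were high in some R tumours under the antibody alone. Ptgs2 (chromosome 1, 150100031 to 150108227), which encodes COX-2, measured 53.3, 62.9, 17.1 and 10.6 CPM against 4.71 to 33.7 CPM (median 7.76) in NR tumours. All R tumours were above the NR median, and R 1 and R 2 exceeded every NR tumour. Vehicle tumours reached 59 CPM and R tumours of the combination 77.7 CPM. The change was 1.44 (SE 0.59, edgeR adjusted p 0.734), unadjusted p 0.0178. Nos2, the inducible nitric oxide synthase, measured 8.92, 4.7, 5.54 and 4.02 CPM against 0.622 to 5.59 CPM (median 1.57), a change of 1.51 (SE 0.73, edgeR adjusted p 0.759), and 11 NR tumours lay below the lowest R tumour. Arg1, the arginase of myeloid cells, measured 70.8, 60.1, 20.4 and 14.3 CPM against 7.15 to 68.5 CPM (median 21.01), a change of 0.58 (SE 0.49, edgeR adjusted p 0.928).

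Cxcl1, a neutrophil chemokine, measured 22.3, 8.91, 19.6 and 12.8 CPM against 3.54 to 31.6 CPM (median 9.25), a change of 0.48 (SE 0.41, edgeR adjusted p 0.929). Il1b, interleukin-1 beta, measured 19.1, 3.13, 35.6 and 46.1 CPM against 12.3 to 64.5 CPM (median 25.5), a change of -0.14 (SE 0.43, edgeR adjusted p 0.997), with R 2 lowest. Il6 had 80 counts in all libraries and was not tested. Over the list 13 of 17 genes were positive with a median of 0.48 (0.28 without R 4 and 0.22 with limma-voom). At an unadjusted p under 0.05, 3 of the 17 (Ptgs2, Nos2 and Vegfa) were higher, against 3.82% of all genes. The list means of R 1 to R 4, 4.32, 4.03, 4.35 and 3.96 log2 CPM, all lay within the NR range of 3.42 to 4.49 (median 3.74).

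The prostaglandin enzymes and receptors had mixed signs, with 8 of 16 positive and a median of -0.039, which turned with limma-voom (0.039) and without R 1 (0.071), R 2 (0.016), NR 2 (0.026) or NR 11 (0.030). Ptgs1, which encodes the constitutive COX-1, measured 56.01, 36.4, 69.04 and 77.3 CPM against 63.5 to 137 CPM (median 93.02), a change of -0.57 (SE 0.23, edgeR adjusted p 0.734). R 1 and R 2 were below every NR tumour, the opposite of Ptgs2. Pla2g4a, the phospholipase that frees arachidonic acid, measured 53.7, 32.03, 49.03 and 48.3 CPM against 19.3 to 48.6 CPM (median 33.3), a change of 0.42 (SE 0.17, edgeR adjusted p 0.734). Ptges, which makes prostaglandin E2, differed by 0.13 (SE 0.24).

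Clock genes had a median change of 0.42, with 13 of 16 positive and 5 higher at an unadjusted p under 0.05 (3.82% of all genes). The list mean was 4.83, 5.25, 4.09 and 3.66 log2 CPM in R 1 to R 4 against 3.69 to 4.48 (median 4.17) in NR tumours. R 1 and R 2 thus lay above every NR tumour and R 4 below every one. By gene, R 1 was above every NR tumour in 8 and R 2 in 11 of the 16, and R 4 below every one in 5. Nr1d1, the repressor REV-ERB alpha, measured 62.4, 65.7, 17.2 and 17 CPM against 10.5 to 27.6 CPM (median 16.7), a change of 1.17 (SE 0.32, edgeR adjusted p 0.653). Ciart, a clock repressor, measured 13.7, 36.6, 3.08 and 1.46 CPM against 2.13 to 9.41 CPM (median 3.43), a change of 1.66 (SE 0.51, edgeR adjusted p 0.659), and Dbp, an output factor of the clock, 30.1, 49.4, 11.7 and 8.86 CPM against 4.57 to 25.8 CPM (median 12.5), a change of 0.86 (SE 0.40, edgeR adjusted p 0.751). R 1 and R 2 exceeded every NR tumour in all 3 genes. Arntl, which encodes the activator BMAL1, differed by 0.0048 (SE 0.29). The median of the list was 0.045 without R 2, and 0.075 without the tumours that held other tissue. The labels give no collection time.

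Genes of proliferation were negative in 24 of 27 cases, at a median of -0.27. The median was -0.13 without R 1, -0.40 without R 3 and -0.42 without the tumours that held other tissue. Mki67, the proliferation marker Ki-67, measured 111, 109.6, 117 and 126 CPM against 67.6 to 236 CPM (median 159), a change of -0.38 (SE 0.22, edgeR adjusted p 0.815), and all R tumours lay inside the NR range. The replication licensing gene Mcm2 and the mitotic kinase gene Plk1 had changes of -0.36 and -0.52 (SE 0.18 and 0.30).

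The 5 red blood cell genes tested were negative in all cases, with a median of -1.07 (-0.69 without R 1, -0.71 without R 2 and -1.87 without R 3) and list means of 2.05, 2.24, 4.81 and 4.24 log2 CPM against 2.13 to 6.07 (median 5.14). The alpha globin genes Hba-a1 and Hba-a2 are copies of each other and uncertain (-1.67 and -1.82, SE 0.71 and 0.70), and the beta globin gene Hbb-bs had a change of -1.07 (SE 0.75). R 1 was the lowest of the 17 tumours and R 2 the third lowest, and the part of blood content in the other differences was not tested. Endothelial genes had a median of -0.14, which was -0.39 without R 1, 0.048 without R 2 and 0.22 without the tumours that held other tissue. Their list mean was highest in R 1 (4.32 log2 CPM) and lowest in R 2 (2.59) of the 17 tumours. R 1 and R 2 thus stood at opposite ends here. Kdr, the VEGF receptor of endothelium, measured 49.4, 21.8, 56.01 and 47.1 CPM against 22.1 to 76.9 CPM (median 58.01). The receptor gene Tie1 and the tight junction gene Cldn5 had changes of -0.47 and 0.82 (SE 0.37 and 0.71). Fibroblast and matrix genes had a median of -0.055 (0.017 without R 4 and -0.16 without R 2). Among them Tnc, tenascin C, measured 91.7, 88.02, 24.4 and 16.2 CPM against 17.3 to 58.5 CPM (median 29.8), a change of 0.87 (SE 0.34, edgeR adjusted p 0.734), and Pdgfrb, the growth factor receptor of fibroblasts and pericytes, 31.4, 15.5, 45.96 and 38.01 CPM against 26.7 to 85.03 CPM (median 49.7), a change of -0.68 (SE 0.29, edgeR adjusted p 0.734). The matrix protease gene Mmp3 had a change of -0.71 (SE 0.31), with R 1 standing above the other R tumours.

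**Figure D5:**
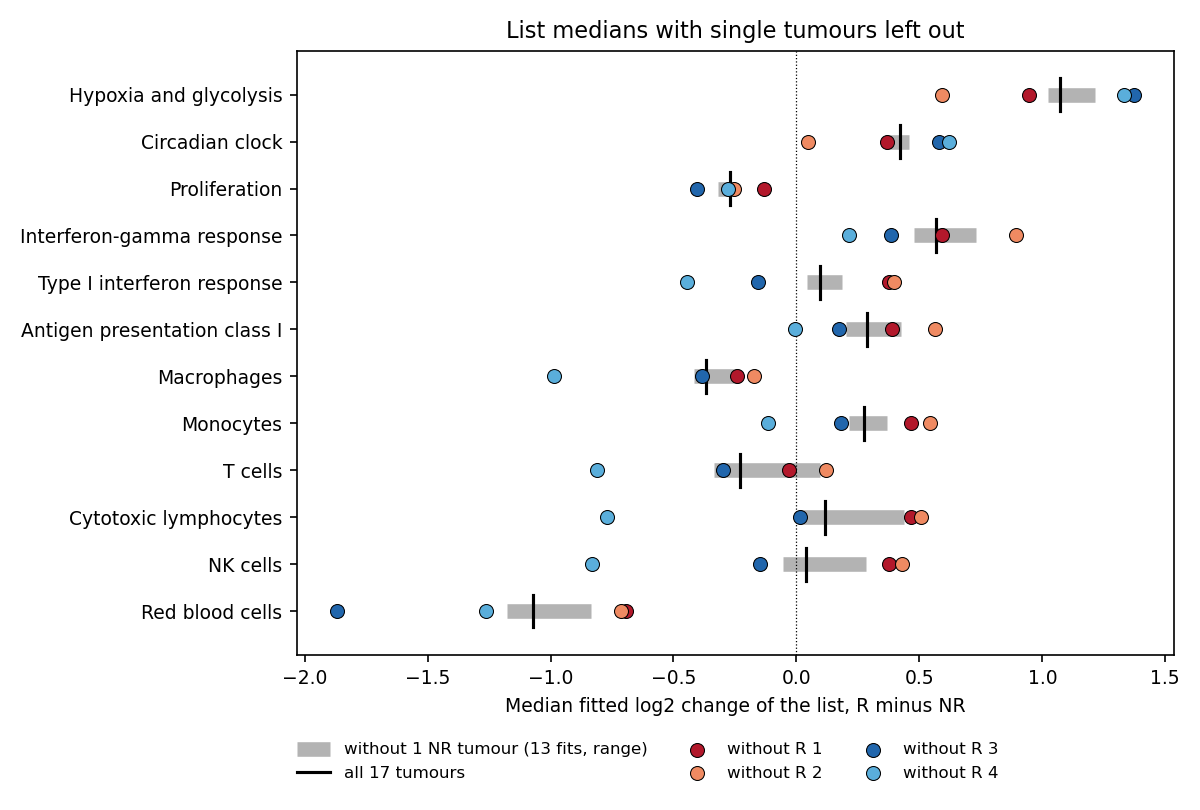
Median fitted log2 change of R from NR (horizontal axis) for 12 lists with all 17 tumours (black bar), without each R tumour (coloured points) and without each NR tumour (grey band, range of 13 fits). Leaving out R 2 takes hypoxia and glycolysis from 1.07 to 0.59, and leaving out R 4 takes cytotoxic lymphocytes from 0.12 to -0.77, while single NR tumours move these medians less.

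Whether the difference between R and NR was another one when celecoxib was added was tested as a difference of differences. With edgeR 0 of 14247 genes passed (0%), also 0 with limma-voom, and 329 had an unadjusted p under 0.05 (2.31%), 194 of them lower (1.36%). That count was 994 without R 4, 755 without R 3 and 180 without R 2, with 0 passing in each. DESeq2 called 2, the muscle genes Art1 and Ckmt2, whose medians were 0 CPM in NR tumours of either treatment. Of all genes 53.9% were positive for R minus NR under the combination (median 0.028), where the NR group held 4 tumours. Under the combination the T cell list was positive in 23 of 23 genes (median 1.39), and the median difference between the treatments was -1.49. Cd8a differed between R and NR by 1.81 under the combination and by -0.66 under the antibody alone, a difference of -2.47 (SE 1.57, unadjusted p 0.123). For Gzmb these values were 2.21 and 0.89, with a difference of -1.31 (SE 1.01, unadjusted p 0.197).

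Of the 23 T cell genes 3 had an unadjusted p under 0.05 for the difference between the treatments, against 2.31% of all genes. Cytotoxic genes were positive in 17 of 17 under the combination (median 1.48), with a median difference of -1.26. Hypoxia genes were closer between the treatments, with 24 of 25 positive under the combination (median 0.83) and a median difference of 0.25. Interferon-gamma genes were positive in 34 of 34 under the combination (median 0.91). Nos2, by contrast, differed by 4.38 under the combination, a difference of -2.87 (SE 1.28, unadjusted p 0.0297). None of these differences passed the adjusted limit, which does not show that the treatments act alike.

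Against the 9 vehicle tumours, 0 of 14247 genes passed with edgeR (0%), and the smallest adjusted p was 0.169. Of all genes 52.3% had a positive change, and 634 had an unadjusted p under 0.05 (4.45%), of which 371 were higher (2.6%) and 263 lower (1.85%). That count was 1212 without R 4, 1022 without R 3 and 383 without R 1, with 0 passing in each. This contrast uses the same 4 R tumours as the one above. DESeq2 called 12 genes and limma-voom 2. Dbp measured 30.1, 49.4, 11.7 and 8.86 CPM in R tumours against 61.3 to 209 CPM (median 86.2) with vehicle, a change of -1.98 (SE 0.47, edgeR adjusted p 0.202). Tef, a relative of Dbp, measured 66.2, 77.3, 31.9 and 29.5 CPM against 88.6 to 229 CPM (median 131), a change of -1.51 (SE 0.32, edgeR adjusted p 0.169). These are the genes that limma-voom called (adjusted p 0.0408 and 0.0393), and all 4 R tumours lay below all vehicle tumours.

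DESeq2 called both as well, with Per2, Per3, Nr1d2, Csad, the tRNA modification factor gene Wdr6 and the mismatch repair gene Msh6 lower and Arntl higher in R. It also called 3 hair keratin genes (Krtap3-3, Krt33b and Krtap19-9b) with counts in R 3 and in no vehicle tumour. Per2 measured 21.9, 41.9, 15.8 and 7.68 CPM against 40.9 to 113 CPM, and Arntl 18.02, 29.7, 18.8 and 11.8 CPM against 5.61 to 13.8 CPM. Csad, already lowest in R tumours against NR, ranged from 59.3 to 86.02 CPM with vehicle (-0.60, SE 0.13, edgeR adjusted p 0.169). The NR tumours given the antibody had clock values on the side of the R tumours, with a median of 12.5 CPM for Dbp and 18.1 CPM for Arntl. The clock list mean of vehicle tumours was 4.57 to 5.86 log2 CPM (median 4.88). R 1 (4.83) and R 2 (5.25) lay inside that range, and R 3 (4.09) and R 4 (3.66) below it. Against vehicle 6 of the 16 clock genes were positive, with 3 higher and 8 lower at an unadjusted p under 0.05 (2.6% and 1.85% of all genes). Among the immune lists, interferon-gamma genes were positive in 34 of 34 against vehicle (median 0.56) and T cell genes in 4 of 23 (median -0.31), beside 52.3% of all genes. At an unadjusted p under 0.05, 2 of the 34 interferon-gamma genes were higher, against 2.6% of all genes. The interferon-gamma list mean of vehicle tumours was 4.91 to 6.58 log2 CPM (median 6.1). R 3 and R 4 (6.98 and 7.37) lay above that range, R 1 (6.2) inside it and R 2 (3.95) below it.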

How the data were processed

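Total RNA of 49 whole CT26 tumours was sequenced from transcript 3′ ends (Lexogen QuantSeq 3′ FWD, per the labels' protocols). The values used are raw read counts per gene as the authors deposited them in 1 matrix of 39179 Ensembl genes. The submitters' processing notes name bcl2fastq, STAR, featureCounts, limma and the mouse builds mm10 and GRCm38, without versions or roles. The sources used here do not give the strand setting or the handling of reads shared by gene copies. Symbols and positions came from the GRCm38 annotation provided for 37607 of the genes.

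Counts were fitted with edgeR 4.0.16 in R 4.3.3 over all 49 libraries and 6 groups (TMM normalization, filterByExpr, robust quasi-likelihood fit, Benjamini-Hochberg adjustment over all genes tested, limit 0.05). Log2 CPM used a prior count of 2. The SE given with an edgeR change is the absolute change divided by the square root of the F statistic of its test. A list mean is the mean log2 CPM of the list's tested genes, and a list is described by its counts and median with no test. Totals were compared by an exact permutation test (scipy 1.17.1). The alternatives were DESeq2 1.42.0, limma-voom (limma 3.58.1), RLE normalization, no filter on low counts, only the groups compared, a skeletal muscle covariate, leaving out libraries with other tissue (muscle list mean over 3, or skin or adipocyte list mean over 5 log2 CPM) and leaving out each tumour in turn. The fit was tested on simulated data. A count of 0 in R 2 allows a level of up to 0.361 CPM (3 counts), and counting error is not given for other single values.

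Named genes are the 10 of smallest p in each direction with a mean of at least 2 CPM (predicted genes and receptor segments left out), the genes whose groups do not overlap, a fixed panel, the 3 members of smallest p of each list described and the genes that DESeq2 or limma-voom called. Others were chosen after their values were seen. The comparison, the lists and the limits for other tissue were chosen with earlier results of these data known. A gene of the panel is not reported here.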

Additional observations from a re-analysis of the deposited data

Results flagged for a closer look

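In 141 gene and list values, each R group of 4 tumours was searched for a tumour whose gap to its nearest neighbour took a share of the group's whole range of log2 CPM above the critical value of Dixon's test, which chance gives in about 1 of 20 groups. It was found in 5 genes, which is no more than that rate gives. Cd4, the co-receptor of helper T cells, stood at -2.001 log2 CPM in R 2 (no count, so a value set by the prior count) with the nearest R tumour at 1.44, a gap of 0.926 of the range. Mmp9, a protease of myeloid cells, stood at 2.88 in R 1 with the nearest at 3.74, a gap of 0.963 of the range. Mmp3, a matrix protease gene, stood highest in R 1, at 4.22 against 3.22, a gap of 0.862. The lysosomal pump gene Atp6v0a1 stood lowest in R 2, at 4.3 against 4.71, a gap of 0.839. Mtch1, a mitochondrial membrane protein gene, stood lowest in R 1, at 8.16 against 8.24, a gap of 0.881 of a narrow range. Their causes were not tested.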

How the results depend on the processing

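The count of 0 genes between R and NR tumours was the same with DESeq2, limma-voom, RLE normalization, no filter, only the groups compared, the muscle covariate, without libraries with other tissue and without each of the 17 tumours in turn. At an unadjusted p under 0.05 edgeR counted 923 genes, DESeq2 982, limma-voom 835 and edgeR without a filter 1610. Without R 3 or R 4 that count was 1498 or 1541, without R 1 or R 2 it was 516 or 503, and without an NR tumour it ranged from 802 to 1175. Without a filter it was 1045 for the difference from the combination and 1423 for R against vehicle. For the difference from the combination DESeq2 called 2 genes, and for R against vehicle DESeq2 called 12 and limma-voom 2, where edgeR called 0. The difference in depth turned its sign for the number of genes with a count (exact permutation p = 0.757).

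With limma-voom the change turned its sign in Gzma (-0.75), Gzmb (-0.11), Cxcl10 (-0.47), Cxcl11 (-0.35), Rtp4 (-0.013), Il2ra (-0.030) and H2-Aa (0.0011). Without libraries with other tissue it turned in Cd3e (0.15), Cd4 (0.0078), Prf1 (0.38), Ccl5 (0.36), Havcr2 (0.13), Batf3 (0.36) and Il1b (0.041). Leaving out 1 tumour at a time gave ranges across 0 for Cd3e (-1.41 to 0.12), Cd4 (-0.54 to 0.092), Cd8a (-1.9 to 0.084), Gzma (-0.74 to 0.92), Gzmc (-0.21 to 1.42), Prf1 (-1.56 to 0.52), Ifng (-0.60 to 1.46), Ccl5 (-0.90 to 0.34), Cxcl10 (-0.084 to 0.86), Cxcl11 (-0.12 to 1.22), Havcr2 (-0.98 to 0.24), Il2ra (-0.0023 to 0.81), Batf3 (-0.42 to 0.28), H2-Aa (-0.60 to 0.065), H2-Eb1 (-0.79 to 0.059), H2-T22 (-0.070 to 0.67), Rtp4 (-0.23 to 0.76), Zbp1 (-0.039 to 0.93), Il1b (-0.56 to 0.22), Lcn2 (-0.20 to 1.16), Csf3r (-0.46 to 0.90) and Cldn5 (-0.15 to 1.25). In these the cause was not tested. Over the named genes and all alternatives, 52 fitted changes turned their sign and 2467 did not.

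No paired analysis was possible because the replicate numbers only name the tumours and tie no tumour of one group to one of another. With 4 R tumours that differ from each other, the SE of many immune genes exceeds 0.5 log2 units, so differences of that size lie within the error.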

Other observations

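Several lists outside the account above had the same order of R tumours. The B cell list had a mean of -0.23, -0.52, 2.28 and 2.47 log2 CPM in R 1 to R 4 against 0.88 to 3.05 (median 1.78) in NR tumours, and R 1 and R 2 had the lowest values of the 17. Mature dendritic cell genes, of cells that carry antigen to T cells, had means of 3.19, 2.36, 3.83 and 4.19 against 3.24 to 4.5 (median 3.62), and mast cell and basophil genes 1.33, -0.41, 3.4 and 3.62 against 1.81 to 4.06 (median 3.1). In both lists R 1 and R 2 were again lowest. Plasma cell genes had another order, with 2.42, 1.58, 1.86 and 2.21 against 0.93 to 2.75 (median 1.62). NF-kB target genes had means of 5.49, 5.14, 5.81 and 6.04 against 5.36 to 6.26 (median 5.52), with R 2 lowest.

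Genes of the unfolded protein response, which adapts the endoplasmic reticulum to misfolded protein, were positive in 13 of 16, against 50.7% of all genes (median change 0.16). At an unadjusted p under 0.05, 1 of the 16 was higher, against 3.82% of all genes. The means of this list were 6.77, 7.2, 6.66 and 6.57 log2 CPM against 6.37 to 6.89 (median 6.67), with R 2 highest of the 17 tumours. Cholesterol synthesis genes were positive in 7 of 18 (median -0.048). Pericyte and smooth muscle genes had a median of -0.28, with 1 of 10 positive. Colon epithelial genes had means of 2.48, 2.67, 3.06 and 1.3 against 0.80 to 2.62 (median 1.73), with R 3, R 2 and R 1 among the 4 highest tumours. The same means were 0.49, 0.78, 1.72 and 0.70 against -0.036 to 1.96 (median 0.64) for skin epithelium and 3.24, 1.37, 3.87 and 1.56 against 0.93 to 4.18 (median 2.24) for adipocytes.

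The NR tumours spanned much of the immune range by themselves. The highest T cell list mean among them was 4.09 log2 CPM and the highest cytotoxic one 4.98, both above every R tumour, and NR 2 and NR 11 took the first places on the first principal component of the 17 tumours. The labels give no measure of response on a scale, so the values cannot be set against tumour growth here.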
